A study of Mus musculus with 5 samples.

Results

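The cell cycle genes described here are 42 genes named by symbol, of 32245 gene symbols in the expression files: 18 genes that act in S phase, 22 that act in G2 phase and mitosis, and Stmn1 and Hmgb2, which dividing cells raise but other cells also use and which were kept apart. They were chosen by function, with earlier results of these data known, and all 42 were found in both expression libraries. The mice were BALB/c animals, 6 weeks old, and carried subcutaneous tumours grown from CT26, a mouse colon carcinoma line. The Control group received phosphate-buffered saline, and the anti-CTLA-4 group received 100 µg of the antibody clone 9H10 into the peritoneum; both were injected on days 5, 8 and 11 and their tissue, which the labels call only tissue, was taken on day 13. CTLA-4 restrains the activation of T cells. The 2 expression libraries are called the Control and the treated library. Each group has 1 droplet library of gene expression, so differences between the libraries have no replicate check and no test was possible; the number of mice in a library is not given in the sources used here. Every interval in brackets is a 95% interval that covers counting error only.

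A dividing cell first licenses its replication origins and makes nucleotides, copies its DNA in S phase, and then builds the spindle and separates its chromosomes in mitosis. The genes for the first set of tasks are switched on together around the start of S phase by E2F transcription factors. Those for the second set are switched on later, in G2, through promoter elements called CHR and CCAAT, which bind the DREAM and MuvB complexes and the factor NF-Y. Lymphocytes that meet antigen, plasmablasts, some tissue macrophages, basal keratinocytes and tumour cells divide, whereas mature neutrophils do not.

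The promoters of the members differed by phase in the motifs they hold. RefSeq held promoter windows, from 250 bases before to 50 bases after the start of transcription, for 35 of the 42 members; Ccne2, Tpx2, Ccna2, Stmn1, Mcm4, Gins2 and Aurkb had none in the table used. Motifs were searched on both strands as exact letters: TTTGGCGC, TTTCCCGC, TTTGCCGC and TTTCGCGC for E2F, TTTGAA and TTCGAA for CHR, and CCAAT. The 3 S phase promoters and 3 G2/M promoters below belong to genes on which the results turn, with every match of these motifs in capitals. Overlapping matches run into each other, as in Mcm6 and Mcm5, where matches on opposite strands share bases.
Mcm6: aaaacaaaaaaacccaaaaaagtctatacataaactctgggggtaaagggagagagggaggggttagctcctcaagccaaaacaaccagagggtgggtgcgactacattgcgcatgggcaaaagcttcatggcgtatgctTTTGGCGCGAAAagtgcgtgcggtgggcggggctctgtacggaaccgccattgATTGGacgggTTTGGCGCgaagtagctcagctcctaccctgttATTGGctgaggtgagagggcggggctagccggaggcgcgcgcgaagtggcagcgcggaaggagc
Mcm5: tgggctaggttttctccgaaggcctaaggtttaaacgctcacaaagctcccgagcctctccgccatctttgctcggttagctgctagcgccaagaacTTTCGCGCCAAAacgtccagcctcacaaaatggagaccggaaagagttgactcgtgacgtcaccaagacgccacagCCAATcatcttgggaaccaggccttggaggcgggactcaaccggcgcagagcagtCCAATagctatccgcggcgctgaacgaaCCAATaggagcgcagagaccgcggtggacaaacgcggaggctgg
Pclaf: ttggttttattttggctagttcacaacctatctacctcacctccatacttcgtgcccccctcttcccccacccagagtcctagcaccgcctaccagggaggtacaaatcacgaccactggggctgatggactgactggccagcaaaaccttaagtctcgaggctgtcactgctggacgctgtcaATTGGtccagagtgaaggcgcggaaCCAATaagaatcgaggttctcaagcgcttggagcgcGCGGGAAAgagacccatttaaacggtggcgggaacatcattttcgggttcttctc
Cdc20: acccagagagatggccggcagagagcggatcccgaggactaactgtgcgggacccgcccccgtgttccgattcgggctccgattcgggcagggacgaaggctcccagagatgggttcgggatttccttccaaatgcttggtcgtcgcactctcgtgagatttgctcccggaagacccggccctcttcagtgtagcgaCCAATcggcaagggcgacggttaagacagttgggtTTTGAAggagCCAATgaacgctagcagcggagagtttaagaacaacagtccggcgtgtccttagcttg
Ube2c: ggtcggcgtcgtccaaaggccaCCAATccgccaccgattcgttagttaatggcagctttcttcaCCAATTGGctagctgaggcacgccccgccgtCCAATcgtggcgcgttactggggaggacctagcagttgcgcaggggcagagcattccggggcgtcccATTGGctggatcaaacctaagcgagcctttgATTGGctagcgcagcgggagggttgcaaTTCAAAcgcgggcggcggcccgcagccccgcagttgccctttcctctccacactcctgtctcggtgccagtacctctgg
Cenpa: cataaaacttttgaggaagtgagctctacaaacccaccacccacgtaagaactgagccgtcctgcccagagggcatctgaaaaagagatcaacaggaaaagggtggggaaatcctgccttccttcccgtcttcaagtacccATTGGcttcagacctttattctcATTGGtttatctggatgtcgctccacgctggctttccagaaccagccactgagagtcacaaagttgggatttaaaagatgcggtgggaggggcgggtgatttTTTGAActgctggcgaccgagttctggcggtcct
On GRCm38.p6 these windows lie at chr1:128359656-128359955 on the minus strand for Mcm6, at chr8:75109259-75109558 on the plus strand for Mcm5 and at chr9:65890073-65890372 on the plus strand for Pclaf. The G2/M windows lie at chr4:118437294-118437593 on the minus strand for Cdc20, at chr2:164769679-164769978 on the plus strand for Ube2c and at chr5:30666636-30666935 on the plus strand for Cenpa.

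An E2F match was found in the promoters of 7 of 15 S members (46.7%), of 1 of 19 G2/M members (5.26%, Cdk1) and of 2.60% of all 27025 genes with such a window. A CHR match was found in 3 of 15 S members (20%), in 15 of 19 G2/M members (78.9%) and in 21.7% of all genes. Most of the G2/M matches lay close to the start: 14 of 19 (73.7%) were within 50 bases of it, against 1 of 15 S members and 6.50% of all genes. The CHR match began 18 bases before the start in Cdc20 and 29 bases before it in Ube2c, and in Cenpa it began at base 17 of the transcript. CCAAT, a short and common motif, was found in 73.3% of the S members, 89.5% of the G2/M members and 41.1% of all genes. CCAAT and CHR stood together in 3 of 15 S members, 15 of 19 G2/M members and 8.61% of all genes. The promoters of Ccnb1, Birc5, Cenpe and Nusap1 held no CHR match in these letters. Other cycle genes that are not members divided alike: an E2F match was found in 10 of 23 other S phase genes (43.5%), and a CHR match in 46 of 68 other G2/M genes (67.6%) but in 4 of 23 of the S phase genes. A match describes the sequence and does not show binding.

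The Control expression library held 5649 barcodes with 86478313 unique molecular identifiers (UMIs, counted molecules) and a median of 6827 UMIs per barcode, and the treated library held 4186 barcodes with 19989467 UMIs and a median of 3147.5; 20 barcodes occurred in both. The libraries stood apart in make-up. Cells with almost no Ptprc (the pan-leukocyte gene for CD45) and without the markers of a tissue class made up 2920 of 5242 Control cells (55.7%) and 45 of 3950 anti-CTLA-4 cells (1.14%). T-like cells, named from marker genes, made up 380 Control cells (7.25%) and 2133 anti-CTLA-4 cells (54.0%). Since a deep cell shows more cycle UMIs than a shallow one, each cell was thinned to 1500 UMIs, and 867 Control and 467 anti-CTLA-4 cells with fewer were left out. A cell was called in cycle when it then held at least 5 UMIs over the 18 S and 22 G2/M members. Clusters were made without the cycle genes.

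By that measure 935 of 4375 cells were in cycle in the Control library (21.4%, 20.2–22.6) and 126 of 3483 in the treated library (3.62%, 3.02–4.29). The totals mix classes of very different size. Of the Control cells in cycle, 84.5% were Ptprc-negative, 7.91% monocyte/macrophage-like, 2.89% NK-like and 2.03% T-like. Of the anti-CTLA-4 cells in cycle, 57.9% (48.8–66.7) were T-like, 14.3% plasma-like and 11.1% B-like. Among the immune classes alone, 125 of 1441 Control cells (8.67%) and 115 of 3264 anti-CTLA-4 cells (3.52%) were in cycle.

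Neutrophil-like cells, the class that does not divide, gave the background. None of 124 such cells in the treated library was in cycle, which allows a share of up to 2.42%, and 86.3% of them held no member UMI at all. None of 11 in the Control library was in cycle, a number too small to bound the share below 27.3%. Over all neutrophil-like cells, not thinned, the S and G2/M members stood at 714 CPM (counts per 1000000 UMIs) in the Control library, from 28 S and 34 G2/M UMIs. In the treated library they stood at 119 CPM, from 19 and 27 UMIs. The member level of this class thus differed between the libraries, and why was not tested. Dendritic-like cells were near this background, with 2 of 60 Control cells and 0 of 53 anti-CTLA-4 cells in cycle, the latter allowing up to 5.66%.

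The highest share was in the Ptprc-negative cells of the Control library, with 790 of 2657 in cycle (29.7%, 28.0–31.5). The plasma-like cells, all of them from the treated library, followed with 18 of 86 (20.9%, 12.9–31.0). NK-like cells had 27 of 193 in cycle in the Control library (14.0%, 9.43–19.7) and 5 of 96 in the treated library (5.21%, 1.71–11.7). Keratinocyte-like cells had 16 of 130 (12.3%, 7.20–19.2) and 5 of 82 (6.10%, 2.01–13.7). Neighbours in this order from NK-like to keratinocyte-like cells overlapped in their intervals.

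**Figure D1:**
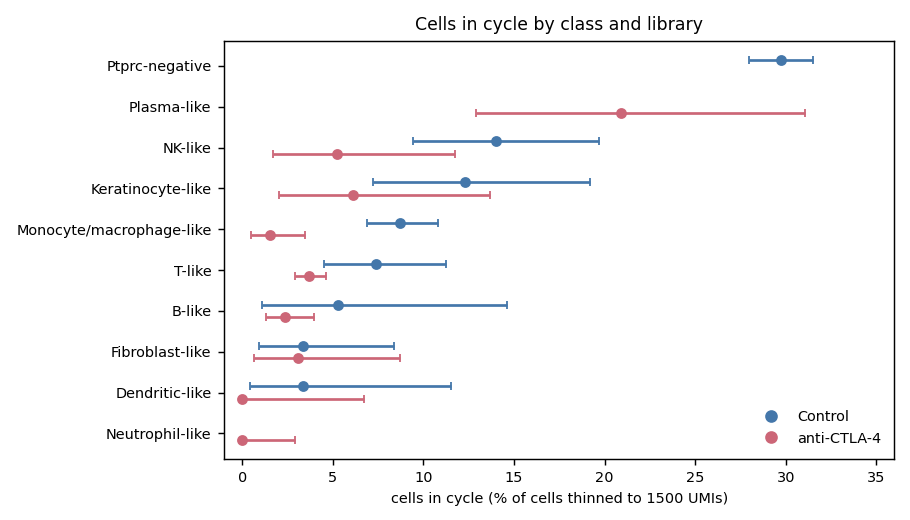
Share of cells in cycle (x axis, percent of cells thinned to 1500 UMIs) for each cell class (y axis) in the Control and anti-CTLA-4 libraries; points are shares and bars are exact 95% intervals of counting error, with class and library pairs of few cells left out. Ptprc-negative Control cells stand at 29.7%, plasma-like cells at 20.9%, and neutrophil-like cells of the treated library at 0.

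Among T-like cells 19 of 258 Control cells (7.36%, 4.49–11.3) and 73 of 1980 anti-CTLA-4 cells (3.69%, 2.90–4.61) were in cycle, a ratio of anti-CTLA-4 over Control of 0.501 (0.299–0.879). This ratio depended on depth and on the threshold: it was 0.782 when 8 member UMIs were required, 0.895 when coarser clusters were used, and 1.10 in cells that were not thinned. Many cells stood near the threshold, with 43 anti-CTLA-4 T-like cells at 4 member UMIs and 20 at 5. Cells in cycle were also the deeper ones, with a median of 13176 UMIs before thinning against 3380 in the other T-like cells of the treated library, and 4030 against 2287 in the Control library. The T-like cells too shallow to be thinned numbered 122 out of 380 in the Control library, but only 153 out of 2133 in the treated one. How far this unequal loss of shallow cells moved the ratio was not tested. Among cells of at least 3000 UMIs, thinned in the same way, the ratio was 0.372.

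The T-like clusters spanned a wide range. Cluster 0, led by Lef1 and Tcf7, the transcription factors of naive T cells, had 4 of 759 anti-CTLA-4 cells in cycle (0.527%, 0.144–1.34) and 0 of 43 Control cells. Cluster 9, led by Tnfrsf4, Ctla4 and Foxp3, the factor that defines regulatory T cells, had 26 of 207 (12.6%, 8.37–17.9) in the treated library and 7 of 94 (7.45%, 3.05–14.7) in the Control library. Cluster 11, led by Cxcr6, Cd8b1 and Gzmb, the granule protease of killer T cells, had 24 of 302 (7.95%, 5.16–11.6) and 4 of 30 (13.3%, 3.76–30.7). In the treated library the intervals of clusters 9 and 11 lay wholly above that of cluster 0.

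Cluster 5, led by Cd8b1 and Ccr7, a lymph node homing receptor, had 8 of 408 anti-CTLA-4 cells in cycle (1.96%, 0.850–3.83) and 7 of 77 Control cells (9.09%, 3.73–17.8), a ratio of 0.216 (0.0683–0.699). Its direction was opposite to that of the Foxp3 cluster, where the ratio was 1.69 (0.713–4.60) with an interval that includes 1. Cluster 13, led by Cxcr6, Il13 and Rora, had 11 of 304 anti-CTLA-4 cells in cycle (3.62%, 1.82–6.38) and 1 of 14 Control cells.

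The same T-like cells were also sorted by single genes. Cells with a Foxp3 UMI were in cycle in 16 of 105 cases (15.2%, 8.97–23.6) in the treated library and 5 of 51 (9.80%) in the Control library. Cells with Cd8a or Cd8b1 were in cycle in 27 of 620 (4.35%) and 7 of 55 (12.7%). Cells with Cd4 and no Foxp3 were in cycle in 15 of 524 (2.86%) and 1 of 40 (2.50%). Cells with no UMI of any of these genes, the largest subset, were in cycle in 11 of 698 (1.58%, 0.789–2.80) and 5 of 108 (4.63%), and cells with UMIs of both kinds in 4 of 33 (12.1%) and 1 of 4. Within the treated library the interval of the Foxp3 cells lay above those of the Cd8, Cd4 and no-UMI cells, but the no-UMI cells were also the shallowest.

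T cell receptor sequences, which the cycle measure does not use, could be joined to 1458 T-like anti-CTLA-4 cells by the β chain. Cells whose clonotype was seen once were in cycle in 40 of 1024 cases (3.91%), cells of clonotypes of 2 to 4 cells in 8 of 190 (4.21%), and cells of clonotypes of 5 or more in 17 of 216 (7.87%, 4.65–12.3). Cells without a β chain had 8 of 550 in cycle (1.45%). The clusters differ in clonotype size, so the same comparison was made within them. In cluster 11 the cells of repeated clonotypes had 17 of 216 in cycle (7.87%), and cells of clonotypes seen once 6 of 46 (13.0%). In cluster 13 the shares were close, 3.62% for repeated and 3.70% for single clonotypes, and in the Foxp3 cluster they were 3 of 21 (14.3%) and 13.0%. Sorted by single genes, Cd8a or Cd8b1 cells of repeated clonotypes had 7.21% in cycle and those of single ones 3.72%, and Cd4 cells without Foxp3 had 7.44% and 2.14%. Cells of larger clonotypes thus had the higher share over all T-like cells and in these gene-sorted subsets, while the 3 clusters gave no common direction, and the Foxp3 cluster had too few cells of repeated clonotypes to show one.

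The 65 cells in cycle with a β chain were spread over 56 clonotypes, and no clonotype gave more than 3 of them. A clonotype of 25 cells had 1 in cycle. In the Control library all 15 such cells had different clonotypes.

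**Figure D2:**
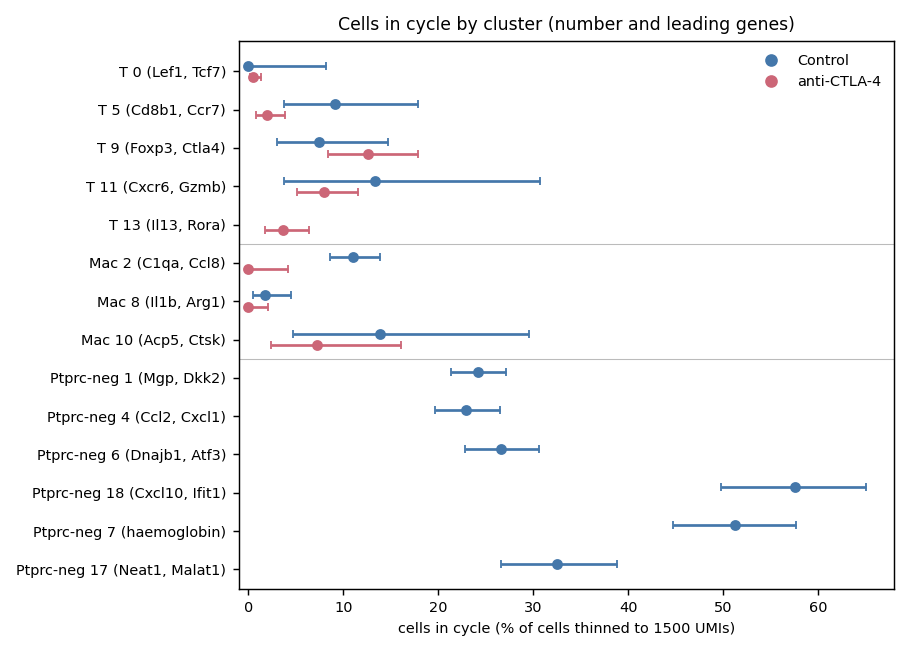
Share of cells in cycle (x axis, percent of cells thinned to 1500 UMIs) for clusters of T-like, monocyte/macrophage-like (Mac) and Ptprc-negative cells (y axis, cluster number and leading genes) in the Control and anti-CTLA-4 libraries; points are shares and bars exact 95% intervals. The Lef1 and Tcf7 cluster stands at 0.527% in the treated library and the Foxp3 cluster at 12.6%, while the Ptprc-negative clusters run from 23.0% to 57.6%.

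Among B-lineage cells, those with switched receptors gave most of the cells in cycle that could be typed. B-like cells had 14 of 593 in cycle in the treated library (2.36%, 1.30–3.93) and 3 of 57 in the Control library (5.26%, 1.10–14.6), with a ratio of 0.449 (0.125–2.43). Receptor sequences of the treated library showed class-switched receptors in 12 thinned B-like cells, of which 5 were in cycle (41.7%, 15.2–72.3), and IgM or IgD in 260, of which 3 were (1.15%, 0.239–3.33). These intervals do not overlap, but the switched cells were also deeper, with a median of 10970 UMIs against 3033. Of the plasma-like cells, 18 of 83 with a switched receptor were in cycle (21.7%), and 0 of 2 with IgM or IgD. Plasma-like cells are the deepest immune class, with a median of 32425.5 UMIs in cycle and 24458 in the others. A Control library of B cell receptors was not analysed here.

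Monocyte/macrophage-like cells were in cycle in 74 of 849 Control cells (8.72%, 6.91–10.8) and 5 of 332 anti-CTLA-4 cells (1.51%, 0.491–3.48), a ratio of 0.173 (0.0545–0.422). Different clusters hold most of the class in the libraries. Cluster 2, led by Ccl8 and by C1qa, C1qb and C1qc, the complement genes of tissue macrophages, held 669 Control and 106 anti-CTLA-4 cells. It had 65 of 590 Control cells in cycle (11.0%, 8.61–13.8) and 0 of 87 anti-CTLA-4 cells, which allows a share of up to 3.45%. Cluster 8, led by Cd14, Il1b and Arg1, genes of inflammatory monocytes, had 4 of 223 Control cells in cycle (1.79%, 0.491–4.53) and 0 of 176 anti-CTLA-4 cells, which allows a share of up to 1.70%. The difference between the libraries was therefore present within the complement-expressing cluster. Cluster 10, led by Acp5 and Ctsk, which osteoclasts and multinucleated macrophages also express, was shallow: 166 of 202 Control cells and 88 of 157 anti-CTLA-4 cells were left out. Of the rest 5 of 36 and 5 of 69 were in cycle, and those 5 are all the anti-CTLA-4 macrophages in cycle. In cells that were not thinned the ratio for the whole class was 0.744.

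Free RNA, which droplets take up beside a cell's own, was gauged from 84 genes that Ptprc-negative cells express at 50 times the level of others or more. The gauge was not computed for keratinocyte-like, fibroblast-like and neutrophil-like cells. Free RNA by this gauge was equal to 10.7% of the member level in T-like Control cells, 8.06% in NK-like, 20.6% in B-like and 19.6% in monocyte/macrophage-like Control cells, against 0.653%, 1.17%, 0.595% and 10.6% in the treated library. Macrophages in cycle did not carry more of it than the others of the Control library, with the gauge at 8.14% and 8.31% of the Ptprc-negative level. A UMI of C1qa was found in 87.8% of the Control macrophages in cycle and in 47.1% of the others. C1qa is a leading gene of the complement-expressing cluster, which held most of the macrophages in cycle, so these shares restate cluster membership. A UMI of Ptprc, the leukocyte marker, was found in 17.6% of those in cycle and 26.2% of the others.

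The Ptprc-negative cells of the Control library were in cycle in every cluster. Cluster 1, led by Mgp and Dkk2, had 209 of 865 in cycle (24.2%), cluster 4, led by the chemokine genes Ccl2 and Cxcl1, 143 of 623 (23.0%), and cluster 6, led by the stress genes Dnajb1 and Atf3, 137 of 515 (26.6%). Cluster 18, led by the interferon-response genes Cxcl10, Ifit1 and Isg15, had 99 of 172 (57.6%, 49.8–65.0). Its interval lay above those of clusters 1, 4 and 6. Cluster 7, led by haemoglobin genes and with the members Rrm2 and Cdc20 among its 10 leading genes, had 124 of 242 (51.2%, 44.8–57.7), but 216 of its 458 cells were too shallow to count. Cluster 17, led by the nuclear RNAs Neat1 and Malat1, had 78 of 240 (32.5%, 26.6–38.8). Only 27 cells of the class could be counted in the treated library, of which 2 were in cycle, so the class was not compared.

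The members themselves were tied to phase to different degrees. In the Ptprc-negative Control cells, each cell in cycle was called S-leaning or G2/M-leaning from all members other than the gene in question, and the gene was then read in both kinds of cell. Of 17 S members with enough UMIs, 11 were higher in the S-leaning cells by 1.5-fold or more, none was higher in the G2/M-leaning cells, and 6 were neither. Of 22 G2/M members, 20 were higher in the G2/M-leaning cells and 2 were neither. The median ratio of G2/M-leaning over S-leaning cells was 0.501 for S members and 3.01 for G2/M members. The share of all genes past 1.5-fold between these cells is not given here. In T-like anti-CTLA-4 cells 4 of 5 measured S members were higher in S-leaning cells, and only 3 of 6 G2/M members in G2/M-leaning cells. In monocyte/macrophage-like Control cells these counts were 2 of 2 and 4 of 5.

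The replication genes were the most S-bound. Cdc6, which loads the helicase onto origins, was at 6.11 UMIs per 100 S-leaning cells and 0.943 per 100 G2/M-leaning cells, a ratio of 0.154 (0.0382–0.465). Mcm6, a subunit of that helicase with 3 E2F matches in its promoter, was at 31.3 and 11.1, a ratio of 0.354 (0.244–0.510). Pcna, the sliding clamp of DNA polymerase, was at 32.2 and 15.4, and all 6 Mcm subunits had ratios from 0.354 for Mcm6 to 0.501 for Mcm4. Mcm2 stood at 0.372, Mcm7 at 0.388 and Mcm3 at 0.409. Uhrf1, which helps copy DNA methylation onto new strands, rested on 46 and 32 UMIs, a ratio per cell of 0.498 (0.307–0.799). The genes of nucleotide supply were mixed. Dut, which removes dUTP, had a ratio of 0.537 (0.413–0.697), and Rrm2, the regulated subunit of ribonucleotide reductase, 0.669 (0.509–0.879). Its partner Rrm1 (1.20, 0.840–1.73), thymidine kinase Tk1 (1.03, 0.786–1.36), thymidylate synthase Tyms (0.830, 0.635–1.09) and Pclaf, a partner of Pcna (0.884, 0.710–1.10), did not separate the phases. Pclaf was at 52.9 UMIs per 100 S-leaning cells and 46.8 per 100 G2/M-leaning cells.

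Among the mitotic genes Cenpf, a kinetochore protein, had the widest separation, with 3.83 UMIs per 100 S-leaning cells and 32.9 per 100 G2/M-leaning cells, a ratio of 8.57 (4.75–16.99). Ube2c, the ubiquitin-conjugating enzyme of the anaphase-promoting complex, was at 29.2 and 133, a ratio of 4.56 (3.66–5.73), and Cdc20, its activator, had a ratio of 3.26 (2.33–4.67). The mitotic kinases Aurka and Plk1 stood at 4.08 and 3.72, and cyclin B1 (Ccnb1) at 3.43. The related cyclin Ccnb2 was at 8.52 and 26.6 UMIs per 100 cells, a ratio of 3.12 (2.02–4.99). Kif23, a motor of the midbody, had a ratio of 4.13 (2.21–8.40), and Hmmr, a spindle protein, 3.01 (1.62–6.02). The checkpoint kinases were sparse: Bub1b rested on 5 UMIs in S-leaning and 19 in G2/M-leaning cells (2.83, 1.02–9.70), and Bub1 on 11 and 29, with an interval that includes 1 (1.96, 0.951–4.35). Top2a, which untangles DNA during and after replication, had a ratio of 1.46 (1.16–1.85), and Cdk1, the kinase of mitosis, 1.15 (0.863–1.55). Of the G2/M members whose promoters were read, Cdk1 alone had an E2F match. Whether the motif bears on its ratio was not tested. Mki67, the gene of the Ki-67 protein used to stain dividing cells, had a ratio of 2.35 (1.61–3.51). Of the genes kept apart, Stmn1 stood at 0.916 and Hmgb2 at 1.64.

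**Figure D3:**
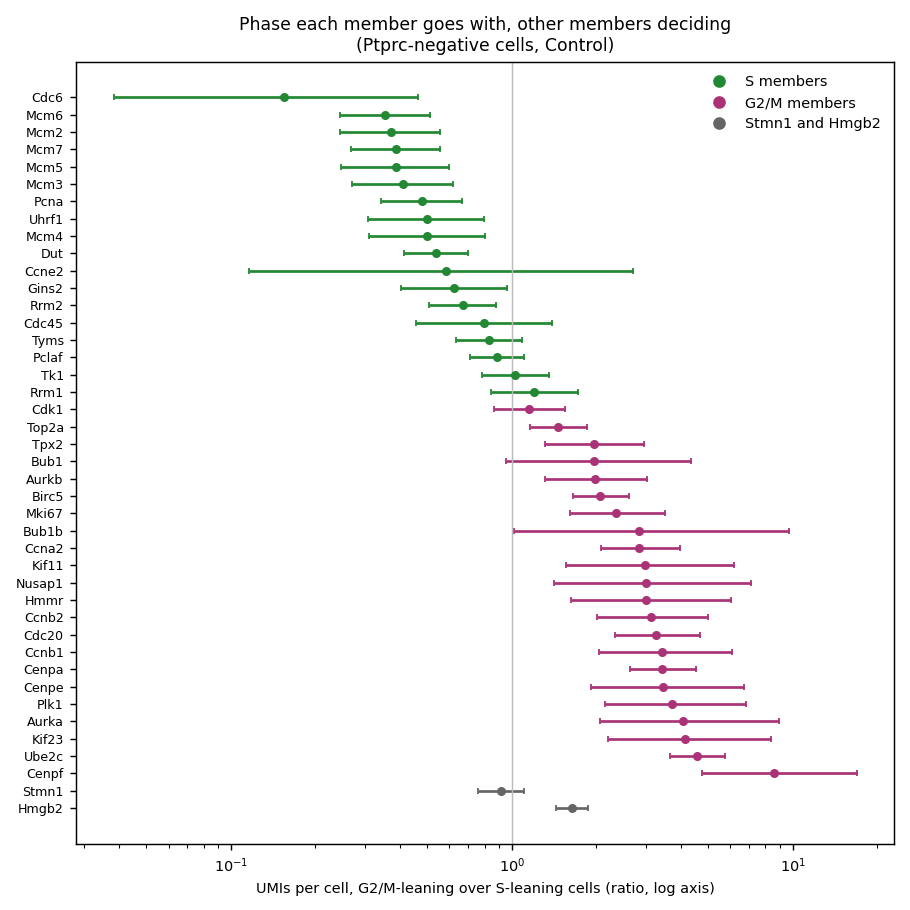
Ratio of UMIs per cell in G2/M-leaning over S-leaning cells (x axis, log scale) for each member (y axis), with the phase of a cell decided by the other members, in Ptprc-negative cells in cycle of the Control library; points are ratios and bars exact 95% intervals, coloured by list. Cdc6 stands lowest at 0.154 and Cenpf highest at 8.57, and Rrm1 and Tk1 lie on the far side of 1 from the other S members.

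Members also differed in how much cells outside the cycle held. Since the members define the cells in cycle, these ratios are a description. In Ptprc-negative Control cells the in-cycle over other ratio was 30.2 for Kif11, a spindle motor, 28.2 for Ccnb1, 21.2 for Cenpf and 11.9 for Mki67, but 2.60 for Pcna, 2.61 for Dut and 2.17 for Cdc45. In T-like anti-CTLA-4 cells it was 448 for Birc5 (survivin), 169 for Pclaf, 138 for Ube2c, 58.6 for Rrm2 and 56.1 for Mki67. There Pcna stood at 4.17, Hmgb2 at 5.89 and Cenpa at 1.79. Hmgb2 was found in 55.6% of the neutrophil-like cells of the treated library, at 700 counts per 1000000 UMIs (CPM), beside 824 CPM in the T-like cells, so its level does not follow division across classes.

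Cenpa, the histone H3 variant that marks centromeres, was, of the 40 members assigned to a phase, the one that T-like, NK-like and B-like cells under the threshold held most. Hmgb2, which was kept apart from the phases, was held more in T-like cells, with a UMI in 45.1% of the anti-CTLA-4 ones under the threshold. Among T-like anti-CTLA-4 cells under the threshold Cenpa gave 524 of 1627 phase-member UMIs (32.2%), and 21.0% of those cells held a Cenpa UMI against 49.3% of the cells in cycle. Among NK-like cells under the threshold, 39.8% held a Cenpa UMI in the Control library and 37.4% in the treated library. The shares in other classes under the threshold were 19.2% of B-like anti-CTLA-4 cells and 15.4% and 16.5% of monocyte/macrophage-like Control and anti-CTLA-4 cells. They were 4.39% in Ptprc-negative Control cells, 5.88% in plasma-like cells, 3.51% in keratinocyte-like Control cells and 1.61% in neutrophil-like anti-CTLA-4 cells. The Ptprc-negative class, with the largest share of cells in cycle, was thus among the classes in which cells under the threshold seldom held Cenpa. No other gene of GENCODE M21 overlaps Cenpa, which spans bases 30666777 to 30674830 of chromosome 5 on the plus strand of GRCm38.

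By level, among classes of 50 or more cells in a library, Cenpa was highest in NK-like cells, at 466 CPM (421–514) in the Control and 435 (372–506) in the treated library. T-like Control cells followed at 304 (270–342), B-like Control cells at 248 (175–342) and dendritic-like Control cells at 245 (200–297), with T-like anti-CTLA-4 cells at 212 (202–222) and Ptprc-negative Control cells at 174 (171–177). The 3 lymphocyte and dendritic Control values after the NK-like cells overlapped in their intervals. Mki67 had another order: plasma-like cells were highest at 119 CPM (105–135), followed by keratinocyte-like Control cells at 61.9 (48.3–78.2), T-like cells at 61.7 in the Control and 54.2 in the treated library, NK-like Control cells at 51.8 and Ptprc-negative Control cells at 47.4 (45.8–49.0). Apart from plasma-like cells, these neighbours overlapped in their intervals. Neutrophil-like anti-CTLA-4 cells were at 12.9 CPM (4.19–30.1, 5 UMIs).

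Top2a was highest in Ptprc-negative Control cells at 123 CPM (120–126), with NK-like at 113, T-like at 108 and keratinocyte-like Control cells at 103, and lowest in neutrophil-like anti-CTLA-4 cells at 5.16 (0.625–18.7). Pcna varied less, from 118 CPM (95.7–143) in NK-like Control cells to 28.4 (14.2–50.8) in neutrophil-like anti-CTLA-4 cells. Mcm6 was highest in NK-like cells, at 201 (172–234) and 187 (146–235) CPM, above T-like Control cells at 96.4 (77.4–119). Within the Ptprc-negative Control cells the members ranged from 3.94 CPM for Ccne2 to 284 for Ube2c and 486 for Hmgb2. These are counts of 5′ molecules in CPM of the class's UMIs and are not divided by gene length.

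The balance of S and G2/M was read as the G2/M part of all S and G2/M member UMIs of a class. In T-like cells it was 52.6% (50.3–54.9) in the Control and 48.3% (47.4–49.2) in the treated library, and in B-like cells 48.1% (41.3–55.0) and 34.5% (32.8–36.3). In monocyte/macrophage-like cells it was 57.7% (56.4–59.1) and 58.3% (55.9–60.6). These values rest in part on Cenpa, which alone gave 28.9% and 29.4% of the G2/M UMIs in T-like cells, 42.9% and 63.4% in NK-like cells, and 24.7% and 46.6% in monocyte/macrophage-like cells, but 11.2% in Ptprc-negative Control and 6.57% in plasma-like cells.

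Without Cenpa the G2/M part was 44.1% and 39.8% in T-like cells, 34.3% and 26.2% in NK-like cells and 37.4% and 26.2% in B-like cells. Monocyte/macrophage-like cells, which had been alike with Cenpa, then stood apart, at 50.7% (49.2–52.1) in the Control and 42.7% (40.0–45.5) in the treated library. Ptprc-negative Control cells moved from 53.7% to 50.7% and plasma-like cells from 56.1% to 54.5%. Keratinocyte-like cells were at 60.1% and 44.8% without Cenpa, and fibroblast-like cells at 57.6% and 52.9%. In each of these classes with both libraries the G2/M part without Cenpa was lower in the treated library, with intervals that overlap in fibroblast-like cells and not in the others.

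**Figure D4:**
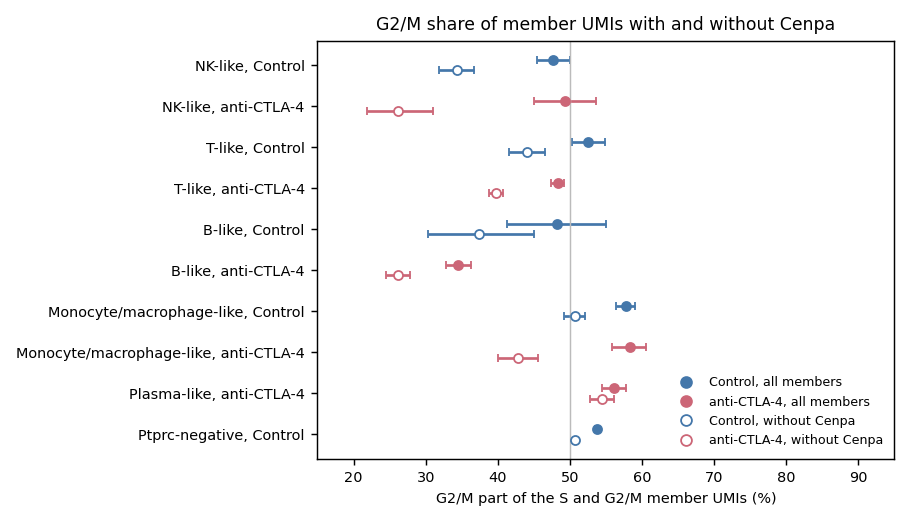
G2/M part of the S and G2/M member UMIs (x axis, percent) by class and library (y axis), with all members (filled) and without Cenpa (open); bars are exact 95% intervals. Without Cenpa the NK-like cells move from 47.7% to 34.3% in the Control library, and the Ptprc-negative cells from 53.7% to 50.7%.

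Read only in cells in cycle, the G2/M part was 60.7% (53.4–67.7) in T-like Control and 48.2% (44.6–51.8) in T-like anti-CTLA-4 cells. These intervals do not overlap, but they count UMIs, and UMIs from the same cell are not independent. Of the T-like cells in cycle, 11 Control cells leaned to G2/M and 7 to S, and 27 anti-CTLA-4 cells leaned to G2/M and 41 to S. Counted by cell, the G2/M-leaning share was 57.9% (33.5–79.7) in the Control and 37.0% (26.0–49.1) in the treated library, intervals that overlap. Ptprc-negative Control cells in cycle were at 57.8% (56.6–58.9), with 424 cells leaning to G2/M and 313 to S. Within that class cluster 17 (Neat1 and Malat1) stood at 68.5% (65.2–71.5) and cluster 4 (Ccl2 and Cxcl1) at 64.0% (61.3–66.7), above the interferon-response cluster 18 at 51.7% (48.4–55.1) and the haemoglobin cluster 7 at 51.3% (48.3–54.2). Among cells in cycle these 2 clusters, which had the largest shares in cycle, had the lowest G2/M parts of the 6, but over all cells cluster 1 was lowest, at 50.4%, with cluster 7 at 51.8% and cluster 18 at 53.2%. Plasma-like cells in cycle were at 62.0% (54.2–69.5), and B-like cells at 15.8% (3.38–39.6, 3 cells) in the Control and 37.4% (29.1–46.3) in the treated library. NK-like cells in cycle were at 48.1% (42.1–54.3) and 58.3% (40.8–74.5) and monocyte/macrophage-like cells at 60.0% (56.0–64.0) and 63.2% (46.0–78.2), higher in the treated library with overlapping intervals. These values include Cenpa and rest on 3 to 74 cells in cycle a class and library. They therefore cannot show whether these 3 classes share the direction of the T-like cells.

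Between the libraries, a gene was called higher or lower where its level in a class differed by 1.5-fold or more with at least 20 UMIs over both. In monocyte/macrophage-like cells 34 of 41 measured members were lower in the treated library and none was higher, while of all genes measured in that class 17.5% were lower and 16.7% higher. The median log2 ratio was -1.19 for the members and 0.00 for all genes, and the summed level of the S and G2/M members had a ratio of 0.554 (0.524–0.585). By phase, 13 of 17 S members and 20 of 22 G2/M members were lower.

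All 4 cyclin and Cdk1 genes, all 6 spindle genes and both genes of the anaphase-promoting complex were among the lower members. Tpx2, a spindle assembly factor, was at 25.9 CPM in the Control and 4.61 in the treated library, a ratio of 0.178 (0.0894–0.323). Tyms was at 31.5 and 6.15 CPM, a ratio of 0.195 (0.109–0.328), and Pclaf at 76.6 and 22.3, a ratio of 0.291 (0.216–0.385). Mki67 stood at 31.0 and 15.4 CPM (0.495, 0.339–0.709) and Top2a at 50.01 and 26.5 (0.530, 0.399–0.697). The 7 measured members that were not lower by this rule were Mcm4 (0.921), Hmgb2 (0.794), Aurka (0.791), Cdc6 (0.765), Rrm1 (0.736), Cenpa and Pcna. Cenpa, which cells outside the cycle held most of the phase members, was at 170 and 179 CPM (1.05, 0.937–1.18) and Pcna at 87.1 and 85.3 (0.980, 0.827–1.16). With free RNA subtracted, 30 members were lower and the summed ratio was 0.616.

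In T-like cells 11 of 41 members were lower and none was higher, against 15.4% lower and 15.4% higher among all genes. The median log2 ratio was -0.40 for the members and -0.07 for all genes, and the summed ratio was 0.743 (0.708–0.781). The lower members were mostly mitotic: 9 of 22 G2/M members and 2 of 17 S members, and none of the 9 helicase and origin genes. The 3 lowest were Cenpf at 42.2 CPM in the Control and 14.8 in the treated library (0.351, 0.244–0.517), Tpx2 at 36.8 and 15.5 (0.422, 0.288–0.634) and Tk1 at 39.0 and 17.5 (0.449, 0.310–0.665). The S genes Pclaf, at 104 and 108 CPM (1.04, 0.843–1.30), and Pcna, at 96.4 and 95.7, had ratios near 1. Mki67 was at 61.7 and 54.2 CPM (0.877, 0.665–1.18), Top2a at 108 and 81.1 (0.748, 0.606–0.932) and Cenpa at 304 and 212 (0.695, 0.613–0.791). With free RNA subtracted 7 members were lower, and with coarser clusters 5. Different clusters make up the class in the libraries: cluster 0 held 56 Control and 826 anti-CTLA-4 cells, cluster 9 133 and 229, and cluster 13 16 and 313. Within the Foxp3 cluster 9 the members stood the other way, with the S members at 1066 CPM in the Control and 1555 in the treated library, the G2/M members at 1198 and 1747, and Mki67 at 85.8 and 173. Within cluster 0 they stood at 487 and 332 CPM for S and 338 and 228 for G2/M.

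In NK-like cells 16 of 29 measured members were lower and none was higher, against 17% lower and 21.9% higher among all genes, and the median log2 ratio was -1.08 against 0.08. Pclaf was at 155 CPM in the Control and 33.3 in the treated library (0.214, 0.111–0.379), Rrm2 at 58.8 and 10.2 (0.174, 0.0457–0.474) and Dut at 136 and 43.5 (0.319, 0.180–0.533). Tk1 had 41 UMIs in the Control and 0 in the treated library, and with 3 UMIs as the floor its ratio was at most 0.159. Mki67 was at 51.8 and 20.5 CPM (0.396, 0.161–0.850) and Top2a at 113 and 51.2 (0.453, 0.265–0.739). Cenpa and Mcm6, the 2 members with most UMIs in NK-like cells under the threshold, had ratios near 1, with Cenpa at 466 and 435 CPM (0.934, 0.776–1.12) and Mcm6 at 201 and 187 (0.929, 0.696–1.23).

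Keratinocyte-like cells had 29 of 35 measured members lower and none higher, against 21.5% lower and 20% higher among all genes. Free RNA was not gauged in this class, so its part in these ratios was not tested. All 19 measured G2/M members and 9 of 14 S members were lower. Cenpa was at 89.3 CPM in the Control and 24.2 in the treated library (0.271, 0.156–0.445), Cdc20 at 67.2 and 16.5 (0.246, 0.125–0.446) and Ube2c at 130 and 39.4 (0.303, 0.199–0.449). Mki67 was at 61.9 and 25.4 CPM (0.411, 0.237–0.684) and Top2a at 103 and 50.9 (0.496, 0.337–0.716), while Pcna was at 76.9 and 82.7 (1.07, 0.767–1.499). Cenpa, near 1 in NK-like and monocyte/macrophage-like cells, was among the lowest members in this class.

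Fibroblast-like cells had 9 of 26 members lower and 3 higher, against 16.9% lower and 23.4% higher among all genes. Ube2c was at 74.3 CPM in the Control and 33.0 in the treated library (0.444, 0.276–0.692), Cenpa at 50.4 and 20.3 (0.403, 0.218–0.707) and Birc5 at 42.4 and 16.5 (0.390, 0.195–0.725). The higher members were Top2a at 17.6 and 43.2 CPM (2.46, 1.39–4.41), Stmn1 at 38.4 and 66.0 (1.72, 1.14–2.60) and Pcna at 35.2 and 58.4 (1.66, 1.07–2.57). Hmgb2 was at 69.6 and 103 CPM (1.48, 1.08–2.03), and Mki67 at 15.2 and 20.3 (1.34, 0.643–2.75). The share of higher members was below that of all genes. By phase, 7 of 14 G2/M members were lower and 1 higher, with a ratio of summed G2/M levels of 0.705 (0.600–0.825). Of 10 S members 2 were lower and 1 higher, with a ratio of summed levels of 0.904 (0.752–1.08).

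B-like cells had 10 of 32 members higher and 8 lower, against 28.7% higher and 15.8% lower among all genes. The share of higher members was near that background. Of 15 S members 5 were higher and 2 lower, also near it, and of 15 G2/M members 5 were higher and 6 lower. Cenpa was at 248 CPM in the Control and 148 in the treated library (0.597, 0.424–0.863), Ube2c at 60.3 and 22.9 (0.380, 0.185–0.877) and Birc5 at 60.3 and 23.8 (0.394, 0.193–0.909). Mki67 rested on 1 Control UMI and 91 anti-CTLA-4 UMIs (5.98, 1.05–239), Top2a was at 73.8 and 41.4 CPM (0.562, 0.300–1.16) and Pclaf at 93.9 and 105 (1.12, 0.656–2.08). The Control class had 73 cells, and free RNA by the gauge stood at 20.6% of its member level.

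**Figure D5:**
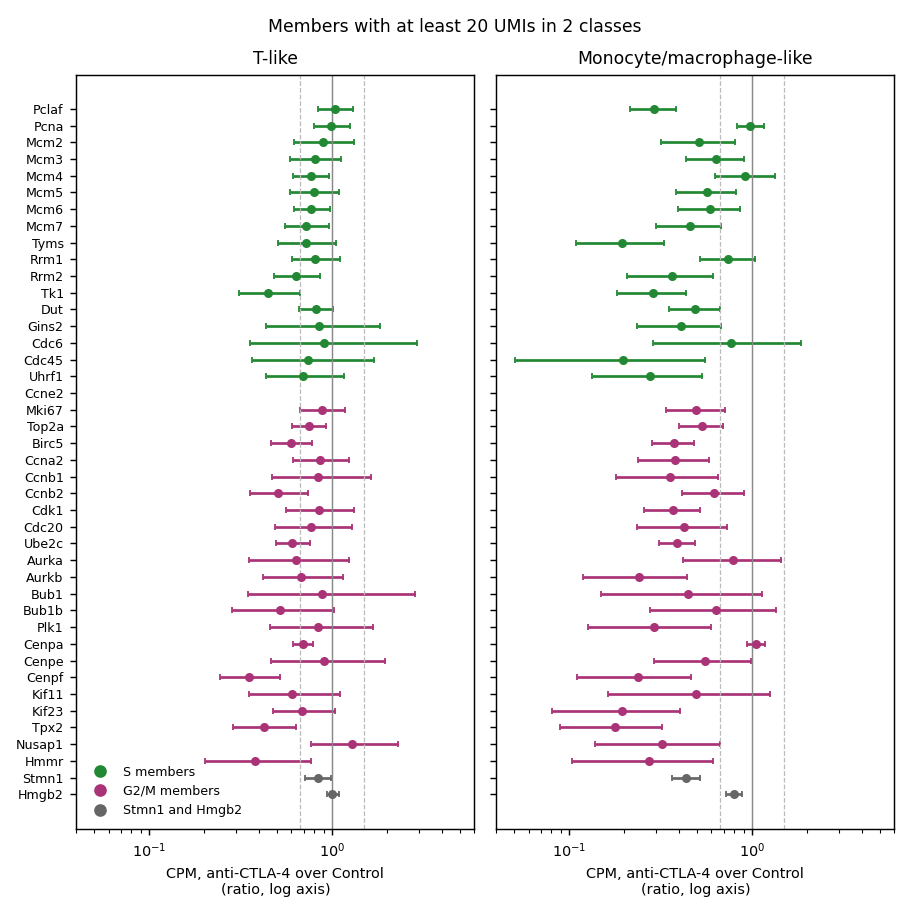
Ratio of member level in CPM, anti-CTLA-4 over Control (x axis, log scale), for each member with at least 20 UMIs (y axis) in T-like cells (left) and monocyte/macrophage-like cells (right); points are ratios, bars exact 95% intervals and dashed lines 1.5-fold. In T-like cells Pclaf and Pcna stand at 1.04 and 0.993 and Cenpf at 0.351, while in monocyte/macrophage-like cells 34 members lie below the lower dashed line and Cenpa stands at 1.05.

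Other genes of the cell cycle, taken from lists by function, were read in the same way. In monocyte/macrophage-like cells 51 of 72 measured other G2/M genes were lower in the treated library and 2 higher, and 17 of 27 other S phase genes were lower and 1 higher. Among all genes of that class 17.5% were lower and 16.7% higher. In T-like cells 34 of 83 other G2/M genes were lower and 7 higher, and 3 of 33 other S phase genes were lower and 3 higher, against 15.4% in either direction among all genes. The other S phase genes were below that share in both directions. In T-like cells the lower genes were thus mostly G2/M genes, as among the members. The 3 other G2/M genes with most UMIs, all with uses outside division, did not share a direction in T-like cells: the histone variant gene H2afz was at 1905 and 1196 CPM (0.628, 0.597–0.661), Hmgb1 at 515 and 548 (1.06, 0.969–1.17) and Hmgn2 at 214 and 289 (1.35, 1.17–1.57).

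Among regulators of G1, the phase before replication, 1 of 12 was higher and 4 lower in T-like cells, beside the 15.4% in either direction among all genes. One of the 4 was Ccnd1, at 60.7 CPM in the Control and 1.04 in the treated library, where free RNA by the gauge would give 60.7 and 2.75. Ccnd2, the cyclin D of lymphocytes, was at 236 and 177 CPM (0.751, 0.652–0.870), Ccnd3 at 144 and 105 and Cdk4, the kinase that D cyclins activate, at 80.2 and 70.2. Ccnd1 was at 812 CPM in Ptprc-negative Control cells, 137 in monocyte/macrophage-like Control cells and 15.4 in those of the treated library. Free RNA by the gauge would give 66.1 and 19.9 in these monocyte/macrophage-like cells. In the treated library the gauge value was above the measured Ccnd1 in T-like and in monocyte/macrophage-like cells, so it is only a rough estimate of the free part. Of the inhibitors of the cycle, 1 of 11 was higher and 5 lower in monocyte/macrophage-like cells, beside 16.7% higher and 17.5% lower among all genes. The higher one was Btg1, at 708 and 1477 CPM. The lower ones were Btg2 at 241 and 137, Cdkn2d at 44.7 and 19.6, Cdkn2c at 15.2 and 6.92, Rbl1 at 11.8 and 5.00 and E2f8 at 4.02 and 1.92. Cdkn1a, the gene of the p21 inhibitor, was at 748 and 798 CPM. Cdkn2a and Cdkn2b, which encode inhibitors of Cdk4 and Cdk6, had 0 UMIs in the 2920 Ptprc-negative Control cells, where 3 UMIs would be 0.0411 CPM; these genes were chosen after their values were seen.

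Genes outside the member list also marked the cells in cycle. Of the other cycle genes measured in T-like anti-CTLA-4 cells, 16 of 17 S phase genes and 28 of 29 G2/M genes were higher in the cells in cycle by 1.5-fold or more, against 25.3% of all genes. In Ptprc-negative Control cells these counts were 29 of 30 and 84 of 85, against 18.6% of all genes. The calls from the 40 phase members were therefore shared by genes that did not enter them, in cells of both libraries. Of the G1 regulators, 6 of 8 were higher in T-like anti-CTLA-4 and 4 of 11 in Ptprc-negative Control cells. In the 19 T-like Control cells in cycle 0 of 4 were higher and 3 lower, against 25.1% higher and 29.96% lower among all genes. The summed level of the G1 regulators in those 19 cells had a ratio of 1.05 (0.612–1.70) over the other T-like Control cells. That interval includes 1, so no contrast with the treated library is drawn from these few genes.

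The 10 genes off the lists with the highest ratios in T-like anti-CTLA-4 cells held 2 kinds of gene. Some serve division: Hist1h2ae, a core histone of DNA copying, was at 237 CPM in cells in cycle and 8.74 in the others (27.2, 15.1–49.0). Tubb5, a tubulin, had a ratio of 8.43, Ezh2, a chromatin silencer, 9.12, and Pttg1, the securin that restrains the separation of chromatids, 7.77. The other kind are effector genes: the granzymes Gzma (14.0, 11.3–17.2), Gzmc (10.5), Gzmf (10.6) and Gzmb (5.08), with Lgals1 at 5.05 and the interferon-inducible Ly6e at 9.74. Few cells carried some of them: of the 73 cells in cycle a Gzmf UMI was found in 4.11%, a Gzmc UMI in 13.7% and a Gzma UMI in 23.3%. A Gzmb UMI was found in 32.9% of the cells in cycle and 9.02% of the others. Lef1, chosen after its values were seen, was lower in the cells in cycle, with a ratio of 0.169 (0.0678–0.349).

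In Ptprc-negative Control cells all 10 such genes serve division or DNA and chromatin, as far as their roles are known. They were led by Cep55, which acts in the final cut between daughter cells, at 49.8 CPM in cells in cycle and 3.21 in the others (15.5, 7.63–35.5), and Plk4, the kinase of centriole copying, at 54.0 and 5.00 (10.8, 5.99–20.9). Pttg1 (7.67), the linker histone Hist1h1d (12.4), Atad2 (7.40), Mis18a, which helps load Cenpa at centromeres (10.1), Diaph3 (8.33), Ube2t (7.66), Hist1h2ae (6.94) and Lmnb2 (9.02) made up the rest. Hist1h2ae and Pttg1 were the 2 genes named in both classes.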

How the data were processed

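The authors deposited unnormalized UMI counts for each gene in each barcode. The submitters' processing notes name Cell Ranger 5.0.0 and the builds mm10 and GRCm38; the annotation release is not given in the sources used here. T and B cell receptor files hold deposited UMI counts per contig. Groups follow the sample titles. Genes sharing a symbol were summed (32285 rows, 32245 symbols).

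Barcodes were kept with 200 or more genes and a mitochondrial part of up to 15% (5482 Control, 4083 anti-CTLA-4). Scrublet in scanpy 1.11.5 marked only 0 and 1 cells, so it had not worked, and the 240 and 133 top-scoring barcodes, 0.8% per 1000 barcodes, were removed. Clusters used 2000 variable genes, 30 components, 15 neighbours and Leiden resolution 1.0 (leidenalg 0.10.2), without 186 cycle genes. They were named by markers; the naming thresholds were set with these data known, so shares may differ from the authors' own classes. Ptprc-negative means Ptprc in under 5% of a cluster's cells and no class name.

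Cells were thinned to 1500 UMIs. Shares have exact Clopper-Pearson, levels exact Poisson and ratios exact conditional binomial 95% intervals (scipy 1.17.1), which cover counting error only. A count of 0 was bounded with 3 counts. No p-values were computed. The shared barcodes (20) were kept. The scripts were tested on simulated counts.

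Members and lists were chosen with earlier results of these data known. Named per class are up to 3 members with the highest and 3 with the lowest ratio by the interval bound nearest to 1 (at least 50 UMIs), the most abundant S and G2/M member, Mki67 and Top2a; off the lists, the 10 genes highest in cells in cycle; from other cycle lists, counts and the 3 genes with most UMIs, of which some are printed.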

Additional observations from a re-analysis of the deposited data

Results flagged for a closer look

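The share of T-like cells in cycle moved in opposite directions in 2 clusters. In the Foxp3 cluster (cluster 9) the ratio of anti-CTLA-4 over Control was 1.69 (0.713–4.60), and in the Cd8b1 and Ccr7 cluster (cluster 5) it was 0.216 (0.0683–0.699). With 1 library per group the difference between the ratios was not tested, and the first interval includes 1. The Control clusters were shallow, with 39 of 133 and 67 of 144 cells left out before the shares were taken.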

How the results depend on the processing

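In all, 23 results were recomputed under 19 settings, of which leaving Cenpa out, a second thinning seed and cells of at least 3000 UMIs were chosen after seeing the data; of 250 values 201 moved within their interval or count range, and a mitochondrial limit of 10%, a second seed and a total without ribosomal and mitochondrial genes moved none. The share of T-like cells in cycle, a ratio of 0.501, turned in direction to 1.10 in cells that were not thinned; it was 0.895 at resolution 0.5 and 0.298 when cells were thinned to 2500 UMIs. The NK-like ratio was 0.112 with at least 8 member UMIs, the B-like ratio 0.110 in cells of at least 3000 UMIs, and the monocyte/macrophage-like ratio 0.744 unthinned. With at least 8 member UMIs the B-like ratio could not be computed, since no Control cell was in cycle. The Ptprc-negative share was 27.2% and 27.0% at 1000 and 2500 UMIs, 38.4% and 17.7% with at least 3 and 8 member UMIs and 73.7% unthinned, and the plasma-like share 12.8% with at least 8 member UMIs and 42.4% unthinned. The summed T-like ratio was 0.802 with at least 500 genes, 0.858 at resolution 0.5 and 0.826 with free RNA subtracted. For monocyte/macrophage-like cells it was 0.516 with doublets kept, 0.430 at resolution 2.0, 0.616 with free RNA subtracted and 0.471 without Cenpa, for NK-like cells 0.528 without Cenpa, and for B-like cells 1.12 with free RNA subtracted. Members lower in T-like cells were 7 with at least 500 genes, with cycle genes in the clustering and with free RNA subtracted, 5 at resolution 0.5 and 4 past a ratio of 2, and 1 was higher with at least 500 genes, at resolution 0.5 and with cycle genes in the clustering. In NK-like cells 8 were lower with at least 50 UMIs per gene, and 26 were lower and 1 higher with at least 1. In B-like cells 5 were lower with free RNA subtracted, past a ratio of 2 and with at least 50 UMIs, 14 with at least 1, and 3 were higher past a ratio of 2. In monocyte/macrophage-like cells 1 was higher with doublets kept and with at least 1 UMI. The G2/M part of T-like anti-CTLA-4 cells was 51.0% at resolution 0.5, 49.5% at 2.0, 49.3% with cycle genes in the clustering and 39.8% without Cenpa, and that of T-like Control cells 44.1% without Cenpa. That of monocyte/macrophage-like cells was 53.5% in the Control library with doublets kept, and 50.7% and 42.7% without Cenpa, and that of Ptprc-negative cells 50.7% without Cenpa. No paired analysis was possible because each group has 1 library. Depth limits the classes of few cells most: the Control B-like share rests on 3 cells and the anti-CTLA-4 NK-like and monocyte/macrophage-like shares on 5 each.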

Other observations

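Barcodes removed by the filters or as likely doublets were in cycle in 42 of 227 thinned Control barcodes (18.5%) and 6 of 131 anti-CTLA-4 barcodes (4.58%), near the shares of the kept cells of each library. Of the 19 T-like Control cells in cycle, 31.6% held a UMI of Isg15, an interferon-response gene chosen after its values were seen, against 14.2% of the other T-like Control cells, with levels of 912 and 137 CPM. Cxcl10 also led there, but all of its 52 UMIs came from 1 cell. Both genes also lead the Ptprc-negative interferon-response cluster. The free RNA gauge was 7.77% in these cells in cycle and 7.30% in the other T-like Control cells. Its highest count in a cell was 36 and 17 UMIs, and Cd3e was found in 57.9% and 70.3%. Whether mixed barcodes gave the Isg15 and Cxcl10 UMIs was not tested.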
